A study of Mus musculus with 6 samples.

Results

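The 300 brightest circular RNA (circRNA) probes of a mouse kidney microarray were examined, out of 14236 circRNA probes on the array. On each of 6 arrays the log2 processed signal of a spot was taken relative to the 75th percentile of that array over its non-control spots, which is the level used below. The 32 probes with an outlier flag on any array were dropped, which left 14204, and the 300 bright probes were chosen by the highest mean level over the 6 arrays, without regard to group. Their levels are given as a description with no test. They are called bright here and not abundant, because brightness also depends on how well each probe binds, so that the order of probes is not an order of RNA amounts.

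Total RNA came from kidneys of BALB/c mice, with 3 arrays labelled chronic intermittent hypoxia (CIH) and 3 labelled control, 1 array per sample. CIH imitates in mice the repeated breathing stops of obstructive sleep apnoea. Each cycle held 6% oxygen for 60 seconds and then 21% oxygen for 60 seconds, with 30 cycles per hour over 8 hours of each day, during 8 weeks. The labels give the controls no exposure of their own, and the age and sex of the mice are not given in the sources used here. Whether the arrays of a group came from different mice is not stated either, and the p-values below measure only how far these arrays spread, which may be technical. Each sample gave 0.5 µg of RNA for labelling with Cy3. Pancreatic tissue and an RNA kit for blood are also named in the labels. None of the 14 kidney or 8 blood markers looked up had a probe among the 50 linear RNA probes of the array, and of 11 pancreas markers 1 had a probe (Chgb), so the tissue could not be checked from its markers. All 3 CIH arrays and control 1 lay on slide 1, and controls 2 and 3 lay on slide 2.

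A circRNA is a closed RNA ring, formed when the splicing machinery joins the end of an exon back to the start of the same or an upstream exon. Without free ends these rings resist the enzymes that degrade linear RNA from its ends, and many are long-lived and build up in cells that rarely divide. Their levels in a tissue reflect the transcription of the host gene, the rate of back-splicing and the slow turnover of the ring. Host genes and sequences of the probes were not used here for want of a table that gives them, so the circRNAs are named by probe ID. The protocols in the labels name no enzyme step that removes linear RNA, and the files do not say which part of a circRNA each probe covers. In RNA from a whole organ, fewer cells of a type and less RNA per cell cannot be told apart.

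These probes made up 2.11% of the circRNA probes and held over 50% of the summed circRNA signal on every array. Their share of the signal was 56.2%, 57.0% and 56.9% in CIH 1 to 3 and 58.9%, 53.9% and 56.7% in controls 1 to 3. The CIH mean was 56.7% ± 0.445 (SD, n = 3) and the control mean 56.5% ± 2.51 (SD, n = 3), so that the groups differed by less than the spread between controls. Control 1 had the highest share and control 2 the lowest. The 10 brightest probes alone held 7.44% to 8.22% of the signal, and the 300 next in brightness held 10.7% to 11.8%.

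**Figure D1:**
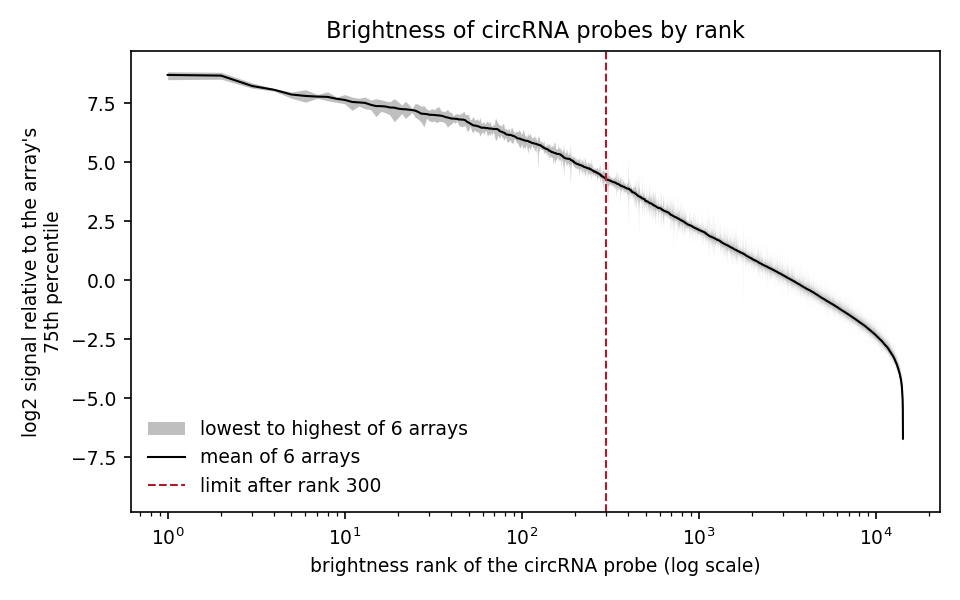
Level of each circRNA probe never flagged as an outlier (vertical axis, log2 signal relative to the 75th percentile of the array) against its brightness rank (horizontal axis, log scale). The line is the mean of 6 arrays, the grey band runs from the lowest to the highest array, and the dashed line marks the limit after rank 300, where the curve has no step.

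The mean levels ran from 8.71 down to 4.29 on the log2 scale, with a median of 5.42, against a median of -1.47 over all circRNA probes. Of the 300 probes, 33 lay above a level of 7, 98 above 6 and 102 below 5. The brightest was ASCRP4006710, which read 8.51, 8.74 and 8.76 in CIH 1 to 3 and 8.84, 8.63 and 8.76 in controls 1 to 3. The second was ASCRP4006342, with 8.53, 8.70 and 8.64 in CIH and 8.82, 8.68 and 8.71 in control arrays. For both probes control 1 was the highest array and CIH 1 the lowest, and the groups overlapped.

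The next brightest, ASCRP4012684 and ASCRP4013042, had means of 8.24 and 8.08, and ASCRP4011502, ASCRP4009452 and ASCRP4004008 had means of 7.88, 7.82 and 7.79. The 10 brightest were completed by ASCRP4004672 (7.78), ASCRP4007153 (7.70) and ASCRP4008132 (7.65). Among these 10 only ASCRP4011502 had groups that did not overlap, with 7.96, 7.96 and 7.98 in CIH 1 to 3 and 7.77, 7.72 and 7.88 in controls 1 to 3. The most even control values belonged to ASCRP4004008, at 7.80 in each of the 3 controls and 7.72, 7.88 and 7.75 in CIH.

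Brightness ranks were much alike on single arrays. The 300 brightest probes of a single array held 292, 296 and 294 of the members in CIH 1 to 3 and 293, 289 and 293 in controls 1 to 3. In all, 277 members ranked among the first 300 on all 6 arrays, and 28 other probes did so on at least 1 array. Of the 10 brightest, 9 were among the first 10 on each single array. In the authors' deposited value table, all but 1 of the 300 members were again among the first 300.

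The limit at rank 300 lay on a slope without a step. The dimmest members, ASCRP4007282 and ASCRP4009159, had mean levels of 4.31 and 4.29, and the first probes below the limit, ASCRP4003499 and ASCRP4010003, had 4.29 and 4.27. The last member and the first probe below it differed by 0.0052, against an SD of 0.16 between arrays of a group for the median level of the 300 probes. Within that SD of the limit lay 21 members and 39 other probes.

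All 300 probes were flagged well above background on all 6 arrays, and 0 were saturated on any array. Their processed signals ran from 6299 to 206903 in arbitrary units, while the 75th percentiles of the arrays were 449 to 527. On the array surface, 149 of the 300 lay above the middle of the 192 rows and 150 left of the middle of the 82 columns, against 50.1% and 50.2% of all circRNA probes.

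The bright probes deviated together between arrays, and the controls lay farther from each other than the CIH arrays did. Their median level was 5.50, 5.42 and 5.47 in CIH 1 to 3 and 5.67, 5.23 and 5.42 in controls 1 to 3. The CIH mean of these medians was 5.46 ± 0.0402 (SD, n = 3) and the control mean 5.44 ± 0.22 (SD, n = 3). Control 1 was the highest of the 6 arrays for 227 of the 300 probes, and control 2 was the lowest for 219, where over all circRNA probes these shares were 17.9% and 13.2%. Both held at once for 188 of the 300, and for 3.53% of all circRNA probes.

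**Figure D2:**
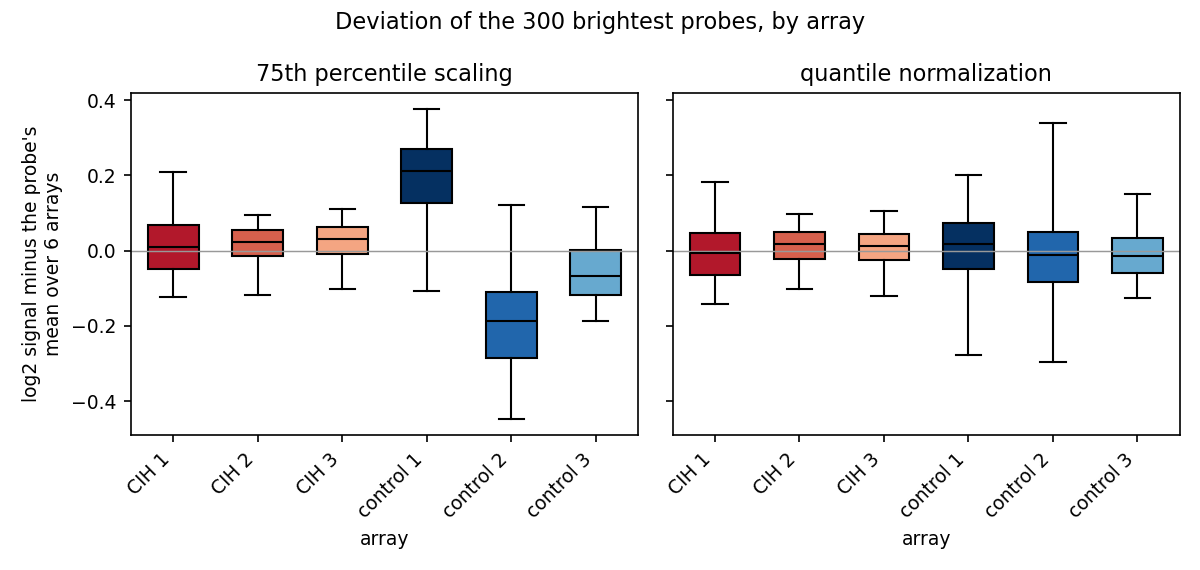
Level of each of the 300 brightest probes minus its own mean over 6 arrays (vertical axis, log2), for CIH 1 to 3 and controls 1 to 3 (horizontal axis), after 75th percentile scaling (left) and after quantile normalization (right). Boxes span the quartiles with the median as a line and whiskers reach the 5th and 95th percentiles; at left the medians are 0.21 in control 1 and -0.19 in control 2, and at right all 6 lie near 0.

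Between controls 1 and 2 the median difference was 0.40 on the log2 scale, with control 1 higher for 268 of the 300 probes, against a median of -0.07 over all circRNA probes. The 3 CIH arrays lay close together, with median deviations from the probe means of 0.0087, 0.0232 and 0.0318, and control 3 was at -0.07. The first principal component of the deviations held 69.5% of their variance, with scores of 3.81 in control 1, -4.32 in control 2, -0.73 in control 3 and 0.15 to 0.56 in CIH arrays. Control 1 was on slide 1 with the 3 CIH arrays, and controls 2 and 3 were on slide 2. A difference between slides therefore cannot be told apart from one between control 1 and the other controls. The part of slide in the wider spread of the controls was not tested.

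This spread set the precision of the comparison. The median SD of a bright probe between arrays was 0.0547 in CIH and 0.22 in control, and the control SD was the larger for 283 of the 300 probes, against 70.7% of all circRNA probes. Pooled over both groups the median SD was 0.16 for the bright probes and 0.13 for all circRNA probes. Quantile normalization, which gives every array the same distribution of values, lowered it to 0.0782 for the bright probes and 0.12 for all. In the authors' deposited value table, whose sorted columns nearly coincide, it was 0.0779 and 0.10. The control median SD under quantile normalization was 0.0842 and the CIH one 0.0555.

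In controls 1 and 2 the deviation was larger among brighter probes. In control 1 the median deviation was 0.24 at ranks 1 to 100, 0.21 at ranks 101 to 200, 0.15 at ranks 201 to 300 and 0.14 in the next 300. In control 2 it was -0.24, -0.19, -0.14 and -0.08 in the same groups. The order turned among dim probes, where at ranks 9601 to 14204 control 1 was at -0.0246, control 2 at 0.13 and control 3 at 0.09. In control 3 the deviation did not grow with brightness, at -0.02, -0.08 and -0.09 in the first 3 groups and -0.12 in the next 300. The CIH arrays stayed between -0.0048 and 0.0384 within the first 300 ranks.

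**Figure D3:**
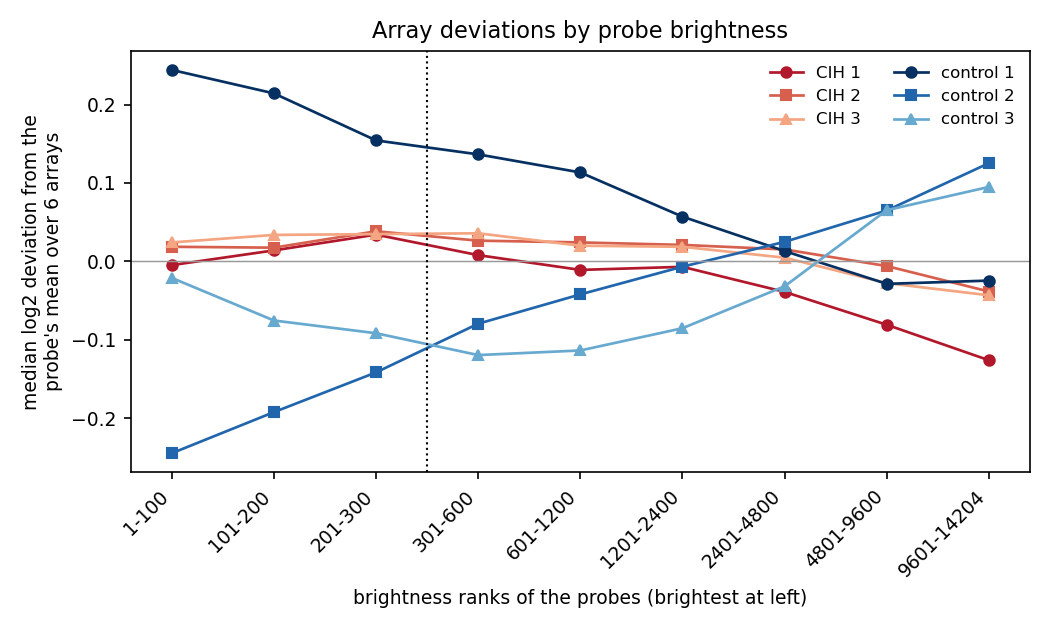
Median deviation of each array from the probe means over 6 arrays (vertical axis, log2) in 9 groups of circRNA probes ordered by brightness rank (horizontal axis, brightest at left), with 1 line per array. Left of the dotted line, at ranks 1 to 300, control 1 is above and control 2 below the other arrays at every point, from 0.24 and -0.24 at ranks 1 to 100 to 0.15 and -0.14 at ranks 201 to 300.

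The other probe families showed smaller distances between controls 1 and 2. The 50 linear RNA probes had mean levels of -0.76 and -0.75 in controls 1 and 2, and the 15 probes named as negative had -3.23 and -3.21. The 14 probes named as circRNA controls had 0.26 and 0.16, and the 15 custom probes had 1.15 and 1.04. These families are dimmer than the 300 probes, and at a mean level of 1.14, the circRNA probes at ranks 1201 to 2400 had median deviations of 0.0570 in control 1 and -0.0068 in control 2.

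The contrast of CIH with control, which the choice of probes did not use, asked which circRNAs differ in the kidney after intermittent hypoxia. None of the 300 bright circRNAs passed the test. With limma, fitted on all 14227 tested circRNA probes with Benjamini-Hochberg adjustment over all of them, 0 of the 300 had an adjusted p under 0.05 (background 0%), and the smallest adjusted p among them was 0.35. An unadjusted p under 0.05 was found for 12, or 4% of them, against a background of 12.5%. Of these 6 were higher in CIH, against a background of 2.33%, and 6 were lower, against 10.2%. With the median of circRNA probes as scale the split was 15 higher, against a background of 4.97%, and 4 lower, against 5.63%. At least a 1.5-fold change with that p was found for 0 of the 300, where the background was 0.843%.

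Differences were small. The median log2 fold change, CIH minus control, was 0.04 over the bright probes and -0.06 over all circRNA probes, and its median size without sign was 0.0572 and 0.11. It was above 0 for 205 of the 300, and for 32.1% of all circRNA probes. The fold changes of the 300 ran from -0.48 to 0.41, and those of the 10 brightest from -0.11 to 0.18. The 95% interval lay within 2-fold in either direction for 298 of the 300 and within 1.5-fold for 287, against 98% and 84.4% of all circRNA probes. These intervals take no account of slide, and with slide as a block 214 of the 300 lay within 1.5-fold. The share of all circRNA probes with that block is not given here.

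**Figure D4:**
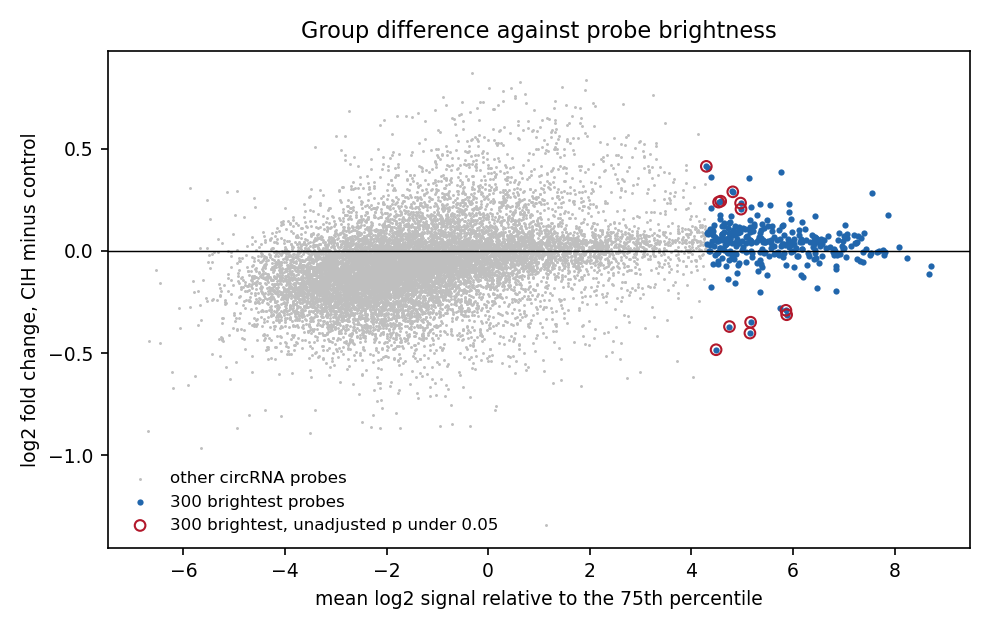
Log2 fold change, CIH minus control (vertical axis), against the mean level (horizontal axis, log2 signal relative to the 75th percentile) for all tested circRNA probes, with the 300 brightest in blue and those of an unadjusted p under 0.05 circled. The bright probes lie between -0.48 and 0.41, and the 12 circled ones are at ranks 110 to 300.

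The direction of the shift over the bright probes rested on which control was used. Without control 1 the median log2 fold change was 0.16, and 54 of the 300 had an unadjusted p under 0.05, 46 higher and 8 lower in CIH, against a background of 3.38% and 16.8%. Without control 2 the median was -0.05, with 8 higher and 9 lower against a background of 2.39% and 7.53%. A block for slide leaves only control 1 to set against the CIH arrays. It gave a median of -0.19, with 8 higher and 36 lower against a background of 2.92% and 3.02%. Slide 2 held no CIH array and gives no value of its own. In each of these fits 0 of the 300 had an adjusted p under 0.05.

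With quantile normalization the median log2 fold change was 0.0167 over the bright probes and -0.0011 over all. An unadjusted p under 0.05 was then found for 9 bright probes, 4 higher and 5 lower in CIH, against a background of 4.2% and 4.8%, and 6 of these were among the first 12. The smallest adjusted p was 0.52. In the authors' deposited value table the limma fit gave 6 higher and 7 lower, against a background of 4.13% and 4.51%, of which 6 were among the first 12. All 12 kept their sign in both fits.

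The groups did not overlap for 21 of the 300 probes, against a background of 17.6%. In 13 of these all CIH arrays lay above all controls, against a background of 3.06%, and in 8 all lay below, against 14.5%. With quantile normalization there were 26 above and 8 below, where the background was 6.83% each way.

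The 12 bright probes at an unadjusted p under 0.05 all had groups that did not overlap. They were spread over the dimmer part of the 300, with 0 at ranks 1 to 100, 5 at ranks 101 to 200 and 7 at ranks 201 to 300. The 6 higher ones had log2 fold changes of 0.21 to 0.41 and the 6 lower ones of -0.48 to -0.29.

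Among the probes higher in CIH, the smallest p belonged to ASCRP4009159, at rank 300 and so at the limit of the set. It read 4.68, 4.38 and 4.44 in CIH 1 to 3 and 4.11, 4.04 and 4.11 in controls 1 to 3. The lowest CIH array was above the highest control, and the 3 controls lay within a narrow span of each other. The log2 fold change was 0.41 (SE 0.10, 95% interval 0.18 to 0.65, limma adjusted p 0.35). It was 0.36 with quantile normalization, 0.39 with slide as a block, 0.43 without control 1 and 0.39 without control 2.

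ASCRP4005922 read 4.98, 5.02 and 4.88 in CIH 1 to 3 and 4.58, 4.74 and 4.69 in controls 1 to 3. Here control 1 was the lowest of the 6 arrays, against the pattern of most bright probes. The log2 fold change was 0.29 (SE 0.0900, 95% interval 0.0845 to 0.50, limma adjusted p 0.35), and 0.25 with quantile normalization and 0.38 with slide as a block.

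On the lower side, ASCRP4007518 read 4.50, 4.66 and 4.54 in CIH 1 to 3 and 4.95, 4.87 and 4.99 in controls 1 to 3. It had the smallest unadjusted p of the 300, at 0.0029. The log2 fold change was -0.37 (SE 0.0895, 95% interval -0.57 to -0.17, limma adjusted p 0.35), and -0.42 with quantile normalization and -0.39 with slide as a block.

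ASCRP4012529 had the largest difference of the 300. It read 4.28, 4.30 and 4.15 in CIH 1 to 3 and 4.78, 4.99 and 4.42 in controls 1 to 3, so that control 3 lay closest to the CIH arrays. The log2 fold change was -0.48 (SE 0.14, 95% interval -0.81 to -0.16, limma adjusted p 0.35), and -0.54 with quantile normalization, -0.53 with slide as a block and -0.35 without control 2. For these 4 probes the adjusted p over all alternative fits ranged from 0.0738 to 1.

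**Figure D5:**
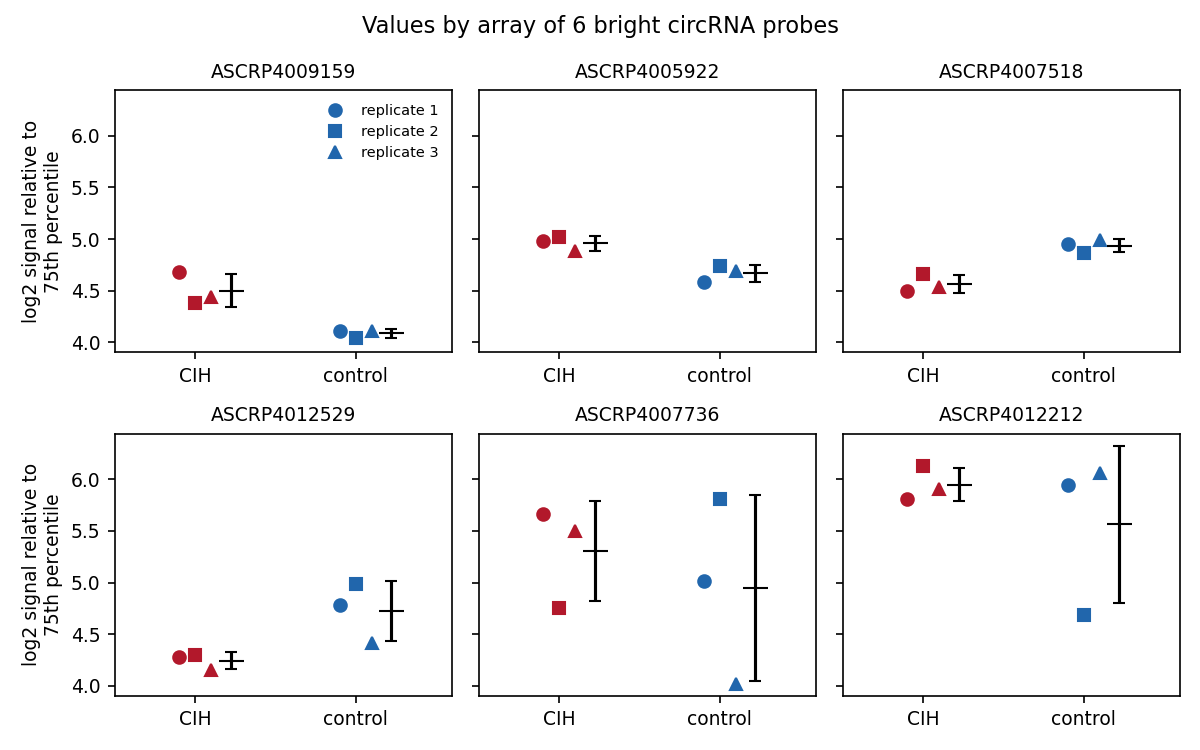
Level by array (vertical axis, log2 signal relative to the 75th percentile) in CIH and control for 6 bright circRNA probes, with points for replicates 1 to 3 and the mean with its SD as a bar beside them. ASCRP4009159 and ASCRP4005922 are higher and ASCRP4007518 and ASCRP4012529 lower on every CIH array than on any control, while ASCRP4007736 and ASCRP4012212 have the largest SD within groups and overlap.

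A few bright probes varied far more than the rest. ASCRP4007736 had the largest pooled SD within groups, 0.72, and read 5.66, 4.76 and 5.50 in CIH 1 to 3 and 5.01, 5.81 and 4.02 in controls 1 to 3. Its highest and lowest arrays were both controls, 3.46-fold apart. ASCRP4012212 came next, with a pooled SD of 0.55, because control 2 read 4.69 while the other arrays lay between 5.81 and 6.13.

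The steadiest probes were ASCRP4004583 and ASCRP4008791, with pooled SDs of 0.0390 and 0.0404. ASCRP4004583 read 5.14, 5.07 and 5.05 in CIH 1 to 3 and 4.82, 4.87 and 4.87 in controls 1 to 3. ASCRP4008791 read 4.65, 4.74 and 4.73 in CIH and 4.59, 4.53 and 4.58 in control arrays. In both, the groups did not overlap, and the log2 fold changes were 0.23 and 0.14 with limma adjusted p of 0.35 and 0.49. Over all 300 probes the median distance between the highest and the lowest array was 0.44, and 0.21 with quantile normalization.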

How the data were processed

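The authors deposited 1-colour scanner files for 6 arrays, 3 per group, whose intensity values were made by Agilent Feature Extraction 11.0.1.1 per the file headers (9.1 per the submitters' processing notes). The software had already taken off background and a spatial trend from the processed intensity, without scaling arrays to each other. The authors' deposited table is on a log2 scale; which normalization made it was not given in the sources used here.

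Levels are log2 processed intensity, scaled to the 75th percentile of each array. Outlier spots were left out. Tested probes were above background on 3 or more arrays, with 2 or more unflagged values in each group. CIH was compared with control by two-sided limma tests (3.58.1, lmFit and eBayes, R 4.3.3) at a threshold of 0.05 after Benjamini-Hochberg adjustment over 14227 probes. The number of arrays limits the precision. The fit was tested on simulated data with independent errors for each probe, which lack the deviations that bright probes share here. Alternatives were other scalings, normexp (offset 50) on the median spot signal, since the files hold no mean spot signal, the authors' table, a block for slide or for replicate number, different filters and variance models, each array left out in turn, and other numbers of bright probes.

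Named probes are the 10 brightest, the 2 on either side of the limit, of those without overlap the 2 higher and 2 lower in CIH by smallest p, and the 2 with the largest and 2 with the smallest SD within groups. The 300 probes, the marker lists and the tests were chosen with earlier results of these data known. Host gene lists were not used here.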

Additional observations from a re-analysis of the deposited data

Results flagged for a closer look

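The 14 probes named as circRNA controls, which lie outside the comparison of the bright probes, had a higher mean level on every CIH array (0.49, 0.49 and 0.50) than on any control array (0.26, 0.16 and 0.42), a difference of 0.21 on the log2 scale. The other probe families went the other way, each with a lower mean level on every CIH array than on any control array. The difference was -0.25 for the 15 probes named as negative, -0.10 for the 50 linear RNA probes and -0.12 for 15 custom probes. The cause was not tested.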

How the results depend on the processing

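The count of bright probes with a limma adjusted p under 0.05 was 0 in every fit run, where over all probes tested it was 118 (0.829%) with the replicate block, 13 (0.0914%) with arrays centred on the median of the 300 and 0 in the others. The replicate block, in which the replicate number of the titles was a block, gave a smallest adjusted p of 0.0738 among the 300, and 18 at an unadjusted p under 0.05 (background 19.1%). Over all probes, arrays that share a number had deviations correlated at 0.442, 0.288 and -0.0691. The arrays of number 1 and those of number 2 correlated best with each other, and the arrays of number 3 did not. Among the 300 bright probes the correlations for numbers 1 to 3 were weaker, at 0.11 and 0.0951, or negative, at -0.15. Whether the numbers mark pairs was left undecided, and the main fit did not use them as pairs. Centring on the median of the 300 probes was chosen after seeing the data.

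At an unadjusted p under 0.05 the 12 probes turned into 19 with the median of circRNA probes as scale (background 10.6%, and 19 also with the 300 chosen again), 44 with slide as a block (5.94%), 88 in slide 1 alone (9.21%) and 2 (5.45%) when arrays were centred on the median of the 300, which raised the median SD over all probes to 0.228. They were 0, 5, 23 and 60 for the 100, 200, 500 and 1000 brightest, and 5 (without CIH 3, background 7.41%) to 54 (without control 1, 20.2%) without 1 array, with 6 without CIH 1 (5.17%). The median log2 fold change was -0.191 in slide 1 alone and with the block for slide. The 21 probes without overlap became 34 with quantile normalization (33 with the 300 chosen again), 259 in slide 1 (background 59.5%), 2, 10, 32 and 63 for the 100, 200, 500 and 1000 brightest, and 21 to 180 (without control 1, 41.3%) without 1 array, with 49 without control 2 (25.1%). Those at 1.5-fold were 1 and 4 for the 500 and 1000 brightest (background 0.843%) and 0 to 2 without 1 array, with 2 without control 1 (2.48%). The median SD was 0.0782 with quantile normalization and 0.0779 in the authors' table, and the mean signal share 54.2% after normexp. For the other numbers of bright probes the background was 12.5% at an unadjusted limma p under 0.05 and 17.6% without overlap. Fewer arrays or other numbers of probes change these counts by construction, and otherwise the cause was not tested.

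Among the 19 named probes 366 values were recomputed, and 41 changed sign, none of them called. With the median of circRNA probes as scale ASCRP4006710 had 0.000195, ASCRP4012684 0.0416, ASCRP4009452 0.067, ASCRP4004008 0.0567, ASCRP4007153 0.0735 and ASCRP4008132 0.0665. With the 75th percentile over circRNA probes ASCRP4009452 had 0.00301, ASCRP4007153 0.0095 and ASCRP4008132 0.00254. With normexp and the 75th percentile ASCRP4009452 had 0.0178, ASCRP4008132 0.0131 and ASCRP4004672 -0.0236. ASCRP4009452 had 0.00532 with normexp and quantile normalization and 0.00449 in the authors' table, and ASCRP4007153 0.00555 with quantile normalization. Blocked by slide, and likewise in slide 1, ASCRP4013042 had -0.0309, ASCRP4004672 -0.214 and ASCRP4007282 -0.0951. Centred on the 300, ASCRP4013042 had -0.00295 and ASCRP4004672 -0.0204. Without 1 array the values ran from -0.13 to 0.0085 for ASCRP4006710, -0.0858 to 0.0245 for ASCRP4012684, -0.00399 to 0.0455 for ASCRP4013042, -0.14 to 0.124 for ASCRP4009452, -0.0655 to 0.0148 for ASCRP4004008, -0.0785 to 0.111 for ASCRP4004672, -0.0758 to 0.0469 for ASCRP4007153, -0.0891 to 0.104 for ASCRP4008132, -0.106 to 0.789 for ASCRP4007736 and -0.0516 to 0.635 for ASCRP4012212. Under quantile normalization ASCRP4012684 and ASCRP4013042, at the same rank on every array, have equal values by construction, and the group means of ASCRP4006710 and of ASCRP4006342, which exchange ranks between arrays, coincide, so none of these 4 has a direction there.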

Other observations

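Only 4 of the 300 bright probes had a highest and a lowest array more than 2-fold apart, and these were looked up after their values were seen. ASCRP4004758, at rank 172, read 5.72, 4.97 and 5.18 in CIH 1 to 3 and 5.79, 4.48 and 5.20 in controls 1 to 3. ASCRP4001212, at rank 297, read 4.84, 4.27 and 4.48 in CIH 1 to 3 and 4.54, 3.75 and 4.07 in controls 1 to 3. In both probes, the array of number 1 was the highest and that of number 2 the lowest of its group. The other two were ASCRP4007736 and ASCRP4012212. For ASCRP4007736 control 2 was the highest of the 6 arrays, where for most bright probes it was the lowest, and quantile normalization left the 6 values at 5.68, 4.75 and 5.49 in CIH and 4.84, 6.02 and 4.14 in control arrays. ASCRP4007736, ASCRP4012212 and ASCRP4004758 remained more than 2-fold apart after quantile normalization, and ASCRP4001212 did not. In all, 4 of the 300 were then more than 2-fold apart, and the remaining one was ASCRP4012529, at 4.13 in CIH 3 and 5.16 in control 2.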
